A study of Mus musculus with 20 samples.

Results

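Chemokine ligand genes were followed in mouse liver RNA. The set was every protein-coding gene whose GENCODE M21 symbol starts with Ccl, Cxcl, Cx3cl or Xcl and goes on with a number and at most 1 letter from a to e. This gave 44 of the 46603 gene identifiers in the files, under 39 distinct symbols, since some symbols have more than 1 identifier. On scaffolds lie 7 of the identifiers, and Ccl21c and Ccl27 are found only there. Of the 44, 18 passed the filter on low counts and were tested among 14661 genes, and 6 had no count in any library. Cxcl11 is annotated as a polymorphic pseudogene and is no member, and the platelet chemokines Pf4 and Ppbp fall outside the symbol rule.

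Poly(A) RNA of 20 liver samples from male mice aged 2 months was sequenced. Both groups are labelled strain C57BL6/J, and the WT mice were bought from a vendor. KO mice were EedHepKO, in which Cre under the albumin promoter (Alb:Cre) acts on Eed alleles with loxP around exons 3 and 6 (Eedflox). The gene is thus lost in hepatocytes, and its state in other liver cells, bile duct cells included, was not measured here. EED is a core subunit of polycomb repressive complex 2 (PRC2), which methylates histone H3 at silent genes. Baseline samples were the lobes 1, 2 and 3 cut out in a partial hepatectomy (PHx) of each mouse, and the remaining lobes 4, 5 and 6 were its later sample. The 4 groups of 5 were WT baseline (replicates 1 to 5), WT after PHx (replicate 1 at 30 h, replicates 2 and 3 at 40 h, replicates 4 and 5 at 48 h), KO baseline (replicates 7, 8, 10, 11 and 12) and KO after PHx (replicates 7 and 8 at 48 h, 10 and 11 at 40 h, 12 at 30 h). The WT mice carry neither Cre nor loxP sites by the labels, so genotype and colony of origin cannot be told apart, and neither can PHx and lobe.

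Chemokines are small secreted proteins that attract white blood cells along a gradient by binding receptors of the G protein-coupled family. Some are made in resting tissue and keep cells in place, such as Cxcl12 for cells with CXCR4. Others are switched on by NF-kappaB or interferon signalling in injured tissue, where Ccl2 draws monocytes, Cxcl1 and Cxcl2 draw neutrophils, and Cxcl9 and Cxcl10 draw T and NK cells. In liver they are made by hepatocytes, Kupffer cells, stellate cells, endothelial cells, bile duct cells and incoming white blood cells alike. In bulk RNA, fewer cells of a type and less RNA per cell cannot be told apart.

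Total counts ranged from 21634890 to 30461351 per library. Values are CPM, the count of a gene per 1000000 counts of the TMM-scaled library. Eed, which checks the genotype labels, ran from 14.6 to 23.2 CPM in the 10 WT libraries and from 2.75 to 7.52 CPM in the 10 KO libraries, with no overlap. The libraries after PHx differed widely among themselves: Mki67, a gene of dividing cells, stood at 82.3, 0.217, 14.2, 0.284 and 328 CPM in WT replicates 1 to 5 and at 3.42, 8.17, 118.5, 25.3 and 3.65 CPM in KO replicates 7, 8, 10, 11 and 12. At baseline Mki67 ran from 0.505 to 1.755 CPM in WT and stood at 34.6, 26.45, 3.38, 4.28 and 2.49 CPM in these KO replicates. WT after PHx replicates 2 and 4 thus had Mki67 under 1 CPM, and results that involve WT after PHx were also computed without both. These runs kept all KO libraries, among them KO after PHx replicates 7 and 12, whose Mki67 lay within the KO baseline range. Throughout, values of single libraries are listed in the order of the replicate numbers given above.

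The promoters of 6 members are shown because these genes carry the results and form 3 pairs: the neutrophil attractants Cxcl1 and Cxcl2, the interferon-induced Cxcl9 and Cxcl10, and Cxcl14 and Cx3cl1, which were called higher in KO at baseline. Each line gives the 250 bases before the RefSeq start on build GRCm38.p6, read 5′ to 3′ on the gene's strand. Capitals mark every match to 1 of 4 motifs searched on both strands: NF-kappaB, the core of the interferon-stimulated response element GAAANNGAA, the interferon-gamma activated site TTCNNNGAA and the TATA box TATAAA.
Cxcl1, chr5:90890995-90891244, plus strand: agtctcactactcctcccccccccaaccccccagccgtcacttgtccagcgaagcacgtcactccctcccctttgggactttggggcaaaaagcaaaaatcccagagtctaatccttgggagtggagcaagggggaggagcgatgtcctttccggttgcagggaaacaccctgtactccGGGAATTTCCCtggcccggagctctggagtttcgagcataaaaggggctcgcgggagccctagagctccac
Cxcl2, chr5:90903649-90903898, plus strand: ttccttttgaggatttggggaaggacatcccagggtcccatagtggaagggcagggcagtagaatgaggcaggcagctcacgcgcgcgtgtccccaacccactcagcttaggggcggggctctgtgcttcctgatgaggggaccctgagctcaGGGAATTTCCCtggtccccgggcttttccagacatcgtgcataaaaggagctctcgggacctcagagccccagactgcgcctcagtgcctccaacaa
Cxcl9, chr5:92328080-92328329, minus strand: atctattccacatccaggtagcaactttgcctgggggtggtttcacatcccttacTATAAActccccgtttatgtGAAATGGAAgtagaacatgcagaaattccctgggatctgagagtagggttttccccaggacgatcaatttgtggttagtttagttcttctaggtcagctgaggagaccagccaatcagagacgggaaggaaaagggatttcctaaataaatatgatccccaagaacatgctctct
Cxcl10, chr5:92348890-92349139, minus strand: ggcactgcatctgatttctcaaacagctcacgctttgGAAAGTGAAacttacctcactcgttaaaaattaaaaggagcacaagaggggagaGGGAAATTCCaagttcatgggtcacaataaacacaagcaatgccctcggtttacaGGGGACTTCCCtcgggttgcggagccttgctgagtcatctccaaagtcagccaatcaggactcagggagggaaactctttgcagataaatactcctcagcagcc
Cxcl14, chr13:56296552-56296801, minus strand: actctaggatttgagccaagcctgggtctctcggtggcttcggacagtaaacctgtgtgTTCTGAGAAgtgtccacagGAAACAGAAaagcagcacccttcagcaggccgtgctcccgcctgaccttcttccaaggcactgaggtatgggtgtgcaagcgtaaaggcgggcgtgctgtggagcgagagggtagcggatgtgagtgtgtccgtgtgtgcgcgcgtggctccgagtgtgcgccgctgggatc
Cx3cl1, chr8:94771930-94772179, plus strand: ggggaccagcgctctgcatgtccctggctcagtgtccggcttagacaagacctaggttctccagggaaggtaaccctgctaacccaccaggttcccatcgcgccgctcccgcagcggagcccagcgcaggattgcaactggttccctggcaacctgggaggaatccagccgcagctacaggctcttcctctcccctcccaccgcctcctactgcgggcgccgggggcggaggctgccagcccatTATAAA

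Cxcl1 and Cxcl2 hold the same 11 letters, an NF-kappaB match on each strand, 71 to 61 bases before the start in Cxcl1 and 97 to 87 bases before it in Cxcl2. Cxcl10 holds 3 NF-kappaB matches, of which 2 overlap, and an interferon response core 213 to 205 bases before its start. Cxcl9 holds such a core 175 to 167 bases before the start and a TATA box further upstream, 195 to 190 bases before it. Cxcl14 holds an interferon-gamma activated site and an interferon response core, and of these 6 windows it has the highest ratio of observed to expected CpG, 0.745, with 16 CpG. Cx3cl1 has 14 CpG, a ratio of 0.543 and a TATA match that ends at the RefSeq start. Its GENCODE M21 start, 94772009, lies further upstream within the printed window, so part of that window, the TATA match included, is inside the GENCODE gene. Among 32851 promoters of the same length, 7.25% held the NF-kappaB motif, 7.13% the interferon response core, 7.02% the activated site and 12.4% the TATA box, and 34% had a CpG ratio above 0.6. Promoters were found for 27 of the 39 member symbols. A match describes letters in this window and no factor's binding.

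The members lie in clusters on mm10. Chromosome 11 holds 12 of them, with Ccl2 (82035571 to 82037453) and Ccl7 (82045712 to 82047525) 8.26 kb apart and Ccl9 (83572919 to 83578636) and Ccl6 (83587882 to 83593087) 9.24 kb apart. Chromosome 5 holds 10, with Cxcl1 (90891241 to 90893115) and Cxcl2 (90903871 to 90905938) 10.8 kb apart and Cxcl9 (92321347 to 92328079) and Cxcl10 (92346638 to 92348889) 18.6 kb apart. On chromosome 8, Cx3cl1 (94772009 to 94782427) lies between Ccl22 (94745590 to 94751699), 20.3 kb away, and Ccl17, 28 kb away. Cxcl14 (chromosome 13, 56288643 to 56296551), Cxcl12 (chromosome 6, 117168535 to 117181367) and Cxcl16 (chromosome 11, 70453983 to 70459984) have no other member next to them in such a cluster.

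Per kb of exon, Cxcl12 and Ccl9 led the family in WT liver at baseline, with 34.3 ± 3.92 and 29.3 ± 2.90 CPM per kb (SD, n = 5 each). Cxcl1 came next with 4.31 ± 2.23 CPM per kb (SD, n = 5), and the other 15 tested members lay between 0.0246 (Cxcl2) and 3.19 (Cxcl9). In KO at baseline Cxcl14 came after Cxcl12 and Ccl9 with 21.9 ± 15.9 CPM per kb (SD, n = 5) against 0.538 ± 0.0968 in WT, and after PHx it had the highest mean level in both genotypes, 39.4 ± 44.9 in WT and 65.4 ± 64.8 in KO. These spreads are as wide as the means, so the order of Cxcl14 against Ccl9 and Cxcl12 after PHx is not firm.

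**Figure D1:**
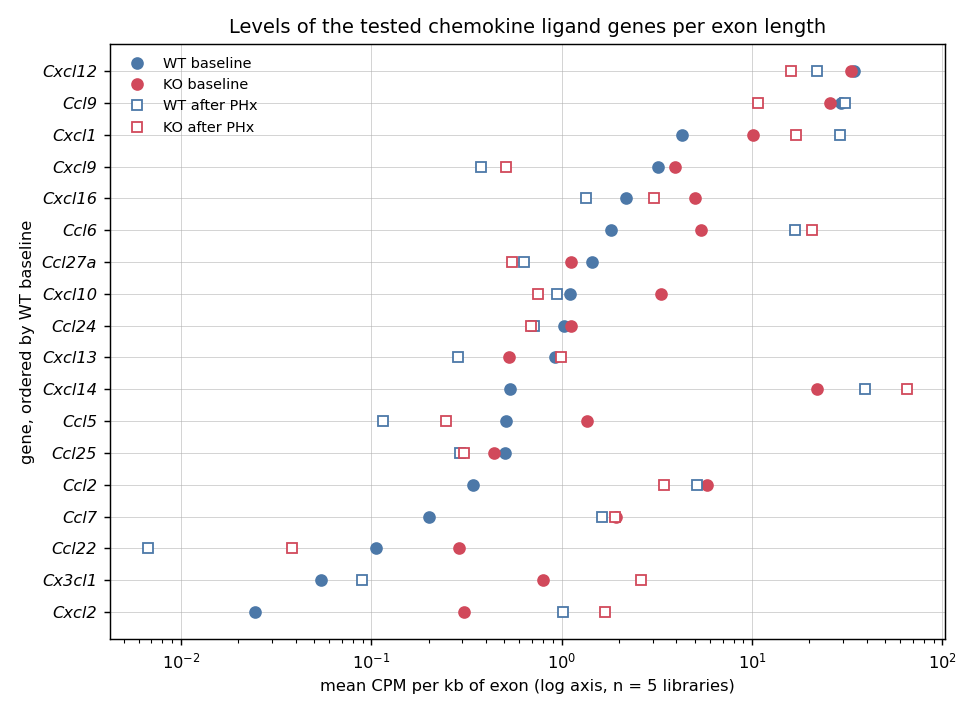
Mean level of each tested chemokine ligand gene in CPM per kb of exon on a log axis, for the 4 groups of 5 libraries (filled circles, baseline; open squares, after PHx; blue, WT; red, KO). Cxcl12 and Ccl9 lie at the top in WT at baseline with 34.3 and 29.3 CPM per kb, while Cxcl14 moves from 0.538 in WT at baseline to 65.4 in KO after PHx.

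KO against WT at baseline asked what loss of Eed in hepatocytes changed in unoperated liver. Here 6 of the 18 tested members rose in KO and none fell, where 11.1% of all genes tested were called higher and 4.89% lower (edgeR quasi-likelihood test, Benjamini-Hochberg adjusted p under 0.05). They were Cxcl14, Ccl2, Cx3cl1, Ccl7, Ccl6 and Cxcl16, and 9 members had an unadjusted p under 0.05. The median log2 change of the 18 was 1.32 against -0.03 over all genes. KO baseline replicates 7 and 8, which had the most Mki67 of their group, were also its highest libraries for Ccl2, Ccl7, Ccl6 and Cxcl14. For Cx3cl1 and Cxcl16 replicate 11 was above replicate 8. The part of dividing cells in these calls was not tested. With the mouse as a replicate block, 2 of these calls remained, Cx3cl1 and Cxcl16, beside 6.93% of all genes higher and 3.35% lower. That fit also used limma in place of edgeR and left 18 samples of 9 numbered mice. What the block alone changed was not tested.

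KO against WT after PHx asked the same in the regenerating liver. Of the 18 members 2 rose, Cx3cl1 and Cxcl16, and none fell, beside 16% of all genes called higher and 8.20% lower. The median log2 change was 0.27 against -0.01 over all genes. Without WT after PHx replicates 2 and 4 together, 4 members were called higher and 2 lower, beside 16.9% and 9.23% of all genes in that fit, and Cxcl16 lost its call while Cxcl14 gained it (log2 change 2.69, edgeR adjusted p 0.0399). The 4 were Cx3cl1, Cxcl14, Cxcl5 and Cxcl17, and the 2 were Ccl9 and Cxcl12. The WT libraries left out had the highest Cxcl14 of their group (199 and 107 CPM) and the lowest Ccl9 and Cxcl12. All KO libraries were kept, so the calls gained for Cxcl14, Ccl9 and Cxcl12 go with that choice of libraries. Cxcl5 and Cxcl17 passed the filter in that fit and not in the fit of all libraries, and their counts lie mostly in KO after PHx, so their calls are no support. The same holds for Ccl11, which was called with Cx3cl1 in the blocked fit.

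After PHx against baseline in WT, 6 members rose (Cxcl14, Cxcl2, Ccl2, Ccl6, Ccl7 and Cxcl1) and 5 fell (Ccl22, Cxcl9, Ccl5, Ccl27a and Ccl25), beside 11.4% of all genes higher and 8.68% lower. With the paired fit, the replicate block over 9 mice, 5 members rose and 1 fell, beside 5.90% of all genes higher and 7.31% lower. In KO after PHx 2 members rose (Ccl6 and Cx3cl1) and 6 fell (Ccl22, Cxcl9, Ccl5, Cxcl10, Cxcl12 and Ccl27a), beside 17.5% higher and 12.1% lower. The median log2 change was -0.37 in WT against 0.04 over all genes, and -0.71 in KO against 0.10. The difference between the responses was called for none of the 18 members by edgeR, where 0.164% of all genes were called higher and 0.225% lower, although 5 members had an unadjusted p under 0.05. Without KO after PHx replicate 10, 2.76% of all genes were called higher and 1.98% lower in this contrast. DESeq2, which called 1.28% of all genes higher and 1.21% lower, called 2 members, both lower in KO: Ccl2 (log2 difference -4.69, DESeq2 adjusted p 0.000885) and Cxcl14 (-4.66, DESeq2 adjusted p 0.0142). These comparisons share groups, so KO against WT at baseline and the response in WT both rest on the same 5 WT baseline libraries.

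**Figure D2:**
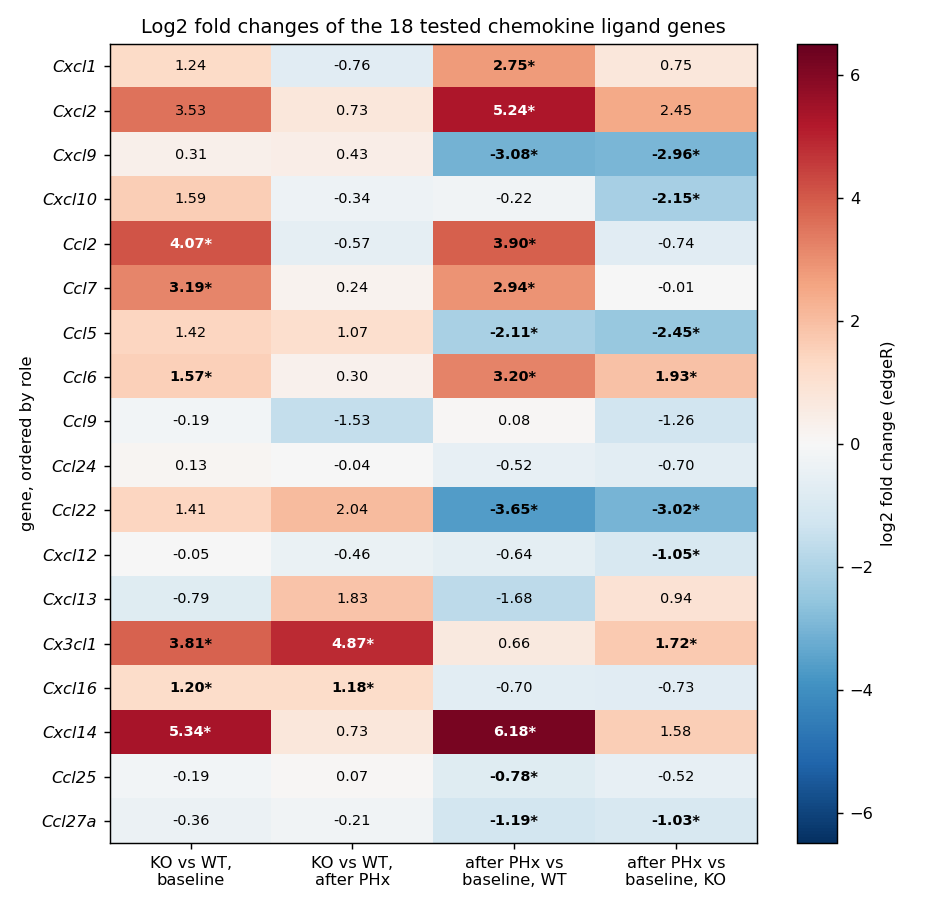
Log2 fold change of each of the 18 tested members (rows, ordered by role) in 4 comparisons of 5 against 5 libraries (columns), with red for higher and blue for lower and an asterisk where the edgeR adjusted p was under 0.05. The left column has 6 asterisks, all on higher values, and the column for the response in KO has 2 on higher and 6 on lower values.

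Among the neutrophil-attracting CXC ligands, Cxcl1 and Cxcl2, both ligands of CXCR2, rose after PHx in WT. Cxcl1 (ENSMUSG00000029380) stood at 13, 7.30, 2.21, 11.1 and 6.83 CPM in WT at baseline and at 4.93, 40.2, 49.4, 160.5 and 15.6 CPM after PHx. WT replicates 2 to 5 were above every baseline value after PHx, and replicate 1 was within the baseline range. Its log2 change was 2.75 (SE 0.78, edgeR adjusted p 0.0176), and it lost the call without WT after PHx replicate 4 (1.83, edgeR adjusted p 0.0816) and without replicates 2 and 4 together (1.58, edgeR adjusted p 0.192). In KO it stood at 9.29, 30.6, 10, 24.5 and 20.9 CPM at baseline and at 82.4, 23.4, 10.5, 5.98 and 37.9 CPM after PHx. Both KO groups overlapped with each other and with WT, and neither the response in KO (0.75, edgeR adjusted p 0.446) nor the genotype difference at baseline (1.24, edgeR adjusted p 0.274) was called, though the latter passed with only the 10 baseline libraries fitted (1.27, edgeR adjusted p 0.0318).

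Cxcl2 (ENSMUSG00000058427) was close to 0 in WT at baseline, at 0.0650, 0, 0.0515, 0.0917 and 0.0459 CPM, which is 5 counts in all. After PHx in WT it stood at 0.436, 2.35, 3.12, 4.40 and 0.172 CPM, each value above the baseline values. On the log2 scale the change was 5.24 (SE 1.43, edgeR adjusted p 0.0142), and the call ended without WT after PHx replicates 2 and 4 together (4.54, edgeR adjusted p 0.0644). KO at baseline had 0.929, 1.01, 0.379, 0.748 and 0.0939 CPM, all above the WT values. The lowest KO value (replicate 12) and the highest WT value (replicate 4) were 2 counts each, so their order rests on library scaling. The log2 change of 3.53 missed the threshold (SE 1.42, edgeR adjusted p 0.0979) and passed with DESeq2 (adjusted p 0.0177) and library size alone (3.99, edgeR adjusted p 0.0435). KO after PHx had 15.6, 1.01, 0.0381, 0.195 and 0.568 CPM, with replicate 7 far above the others. The response in KO was not called (2.45, edgeR adjusted p 0.0969), but was without KO after PHx replicate 10 (2.76, edgeR adjusted p 0.0389). Without KO after PHx replicate 7 it turned to -0.47 (edgeR adjusted p 0.716).

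Cxcl3 and Cxcl5, further ligands of CXCR2 in the same cluster, were too low to be tested. Cxcl3 had 0 counts in the 5 WT baseline libraries and 2 in KO at baseline, against 74, 3, 4, 7 and 4 counts in KO after PHx. Over the group that was 92 against 2 counts, a ratio of 36.3 (95% counting interval 9.77 to 304, exact binomial), and replicate 7 held most of it. Cxcl5 had 77 counts in the same KO library, 16 in KO baseline replicate 7 and 10 in WT after PHx replicate 4. Cxcl15 had 3 counts, in KO baseline replicate 7. In a fit without the filter Cxcl3 was called for the response in KO (log2 change 4.78, edgeR adjusted p 0.0226). These reads had no molecular identifiers, so an interval or floor covers only the error of counting.

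Of the interferon-induced ligands of CXCR3, Cxcl9 fell after PHx in both genotypes. Cxcl9 (ENSMUSG00000029417) stood at 10.1, 8.95, 10.96, 11.1 and 6.93 CPM in WT at baseline and at 1.09, 1.65, 1.75, 0.638 and 0.550 CPM after PHx. In KO it went from 16, 19.2, 7.97, 11.1 and 5.35 CPM at baseline to 2.19, 0.966, 0.877, 0.528 and 3.17 CPM after PHx. The stages did not overlap in either genotype, and it was lower in 4 of 4 numbered WT mice and in 5 of 5 KO mice. The fitted log2 change was -3.08 in WT (SE 0.48, edgeR adjusted p 0.000305) and -2.96 in KO (SE 0.47, edgeR adjusted p 0.000619). The difference of 0.12 between these responses was not called (SE 0.62, edgeR adjusted p 0.961), and no alternative run ended either call.

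Cxcl10 (ENSMUSG00000034855), its neighbour, fell after PHx in KO. It stood at 7.47, 12.2, 5.69, 9.60 and 2.63 CPM in KO at baseline and at 2.07, 0.593, 1.07, 3.31 and 1.37 CPM after PHx, lower in 5 of 5 mice. The groups overlapped through replicate 12 at baseline and replicate 11 after PHx, and the log2 change was -2.15 (SE 0.63, edgeR adjusted p 0.0168). In WT it stood at 4.68, 2.45, 1.24, 2.66 and 1.47 CPM at baseline and at 1.87, 0.435, 5.97, 0.496 and 1.89 CPM after PHx, with no call (-0.22, edgeR adjusted p 0.843). Without WT after PHx replicate 3 that value was -1.08 (edgeR adjusted p 0.205), and without WT baseline replicate 1 it was 0.13 (edgeR adjusted p 0.924). At baseline the difference of 1.59 between KO and WT missed the threshold (SE 0.62, edgeR adjusted p 0.0883). It passed with DESeq2 (adjusted p 0.0397), with library size alone (2.11, edgeR adjusted p 0.0223) and when only the 10 baseline libraries were fitted (1.63, edgeR adjusted p 0.00854). Exons of Art3 overlap 133 bases of Cxcl10 on the other strand, and the strand setting of the counting is not given in the sources used here.

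**Figure D3:**
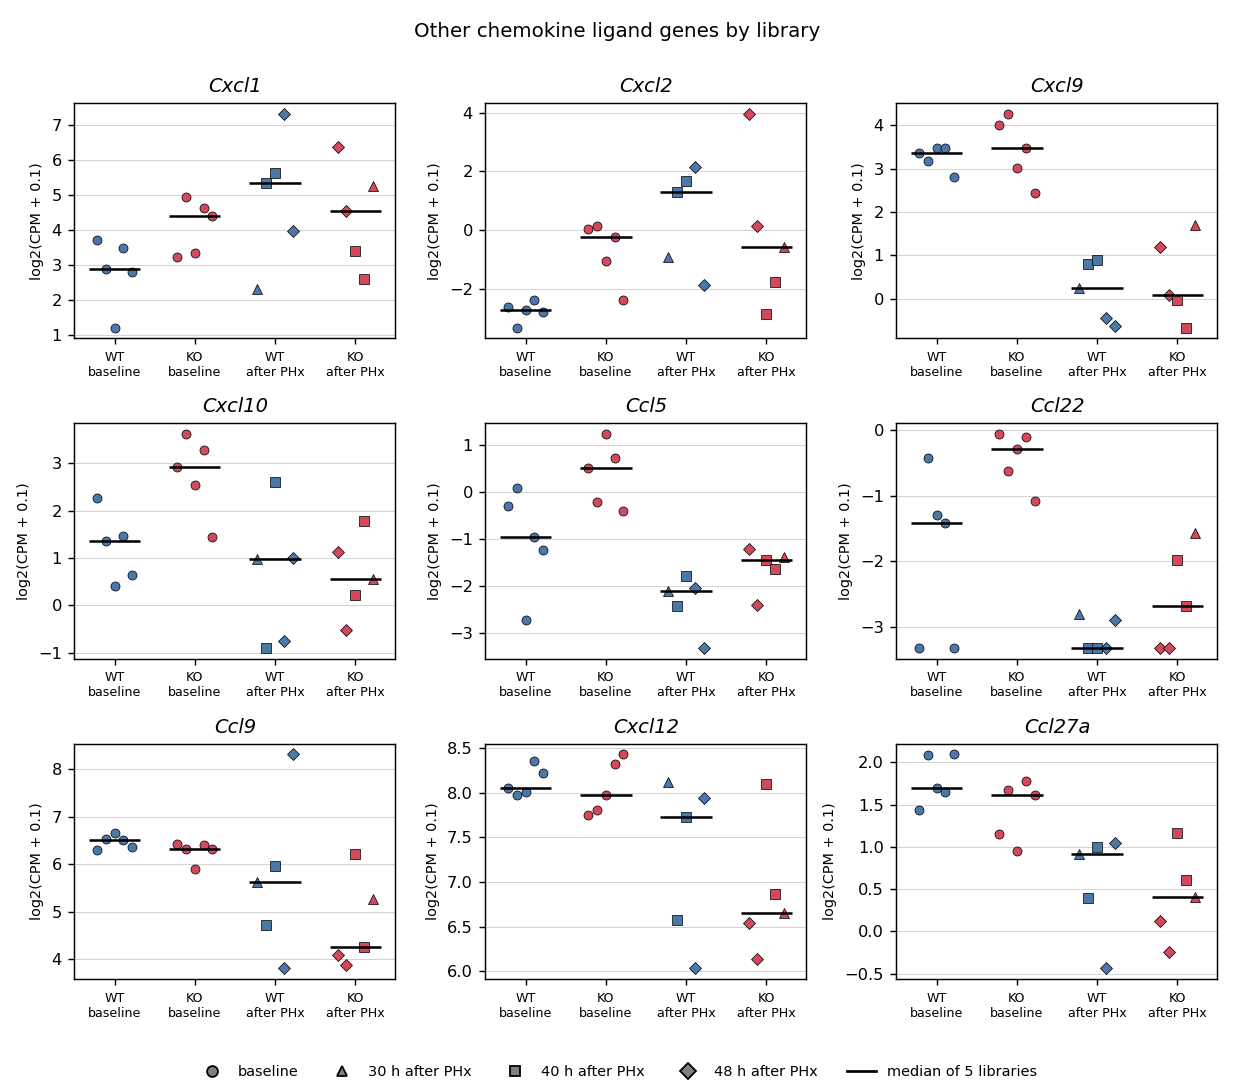
CPM of 9 members in each library on the log2(CPM + 0.1) scale, by group (blue, WT; red, KO), with marker shapes for baseline, 30 h, 40 h and 48 h after PHx and a bar at the median of 5 libraries. All 5 libraries of each genotype after PHx lie below all baseline libraries for Cxcl9, while Cxcl1, Cxcl2 and, in WT, Ccl9 spread widely among the libraries after PHx.

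Of the 4 members listed as ligands of CCR2, the receptor that brings monocytes out of the bone marrow, 2 were tested, Ccl2 and Ccl7, and both were called higher in KO at baseline. Ccl2 (ENSMUSG00000035385) stood at 0.455, 0.350, 0.309, 0.734 and 0.0917 CPM in WT and at 9.39, 8.79, 6.97, 6.07 and 1.60 CPM in KO, with no overlap. The log2 change was 4.07 (SE 0.83, edgeR adjusted p 0.0022), a fold of 16.8, and the blocked fit lost the call narrowly (4.18, limma adjusted p 0.051). After PHx the level in WT was 1.22, 7.52, 15.8, 4.15 and 0.550 CPM, and in KO it was 4.17, 6.83, 0.763, 5.70 and 2.18 CPM. Ccl2 thus rose in WT (3.90, SE 0.82, edgeR adjusted p 0.00308), in 4 of 4 numbered mice, and after PHx the genotypes overlapped (-0.57, SE 0.70, edgeR adjusted p 0.592).

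In KO the response of Ccl2 was -0.74 (SE 0.70, edgeR adjusted p 0.435), with a lower value after PHx in 4 of 5 mice. The difference between the responses was -4.63 (SE 1.07, edgeR adjusted p 0.0629). It passed the threshold without the filter (-4.75, edgeR adjusted p 0.049) and without WT after PHx replicate 1 (-4.90, edgeR adjusted p 0.0404), WT after PHx replicate 5 (-5.04, edgeR adjusted p 0.0178) or KO after PHx replicate 10 (-4.38, edgeR adjusted p 0.0254).

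Ccl7 (ENSMUSG00000035373), next to Ccl2 on chromosome 11, stood at 0, 0.250, 0, 0.550 and 0 CPM in WT at baseline and at 2.29, 2.28, 2.00, 0.914 and 0.235 CPM in KO. Replicate 12 of KO lay within the WT range and the other 4 lay above it. After PHx the values were 0.567, 1.61, 3.16, 1.10 and 0.103 CPM in WT and 1.77, 1.38, 0.381, 3.56 and 0.568 CPM in KO. Its log2 change was 3.19 at baseline (SE 1.01, edgeR adjusted p 0.0363) and 2.94 for the response in WT (SE 1.00, edgeR adjusted p 0.0438). Both calls were close to the threshold: the first ended without WT baseline replicate 1, 2, 3 or 5 or KO baseline replicate 7, 8 or 10 (edgeR adjusted p 0.0607 to 0.0817), and the second without WT baseline replicate 1, 2, 3 or 5 or WT after PHx replicate 2, 3 or 4 (0.0556 to 0.118). The blocked fits gave a limma adjusted p of 0.0973 and an edgeR adjusted p of 0.0861. The response in WT also missed the threshold with a time term (0.0616), with only the samples compared (0.0601) and without WT after PHx replicates 2 and 4 together (0.102).

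Ccl8 and Ccl12 of the same cluster were not tested. Ccl12 had 0 counts in WT at baseline and 1, 2, 6, 2 and 6 counts in KO, at least 4.35-fold higher against a floor of 3 counts over the group, and was not called without the filter (edgeR adjusted p 0.0761). Ccl8 had counts in 4 libraries, all of them KO, with 7 in KO after PHx replicate 11.

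**Figure D4:**
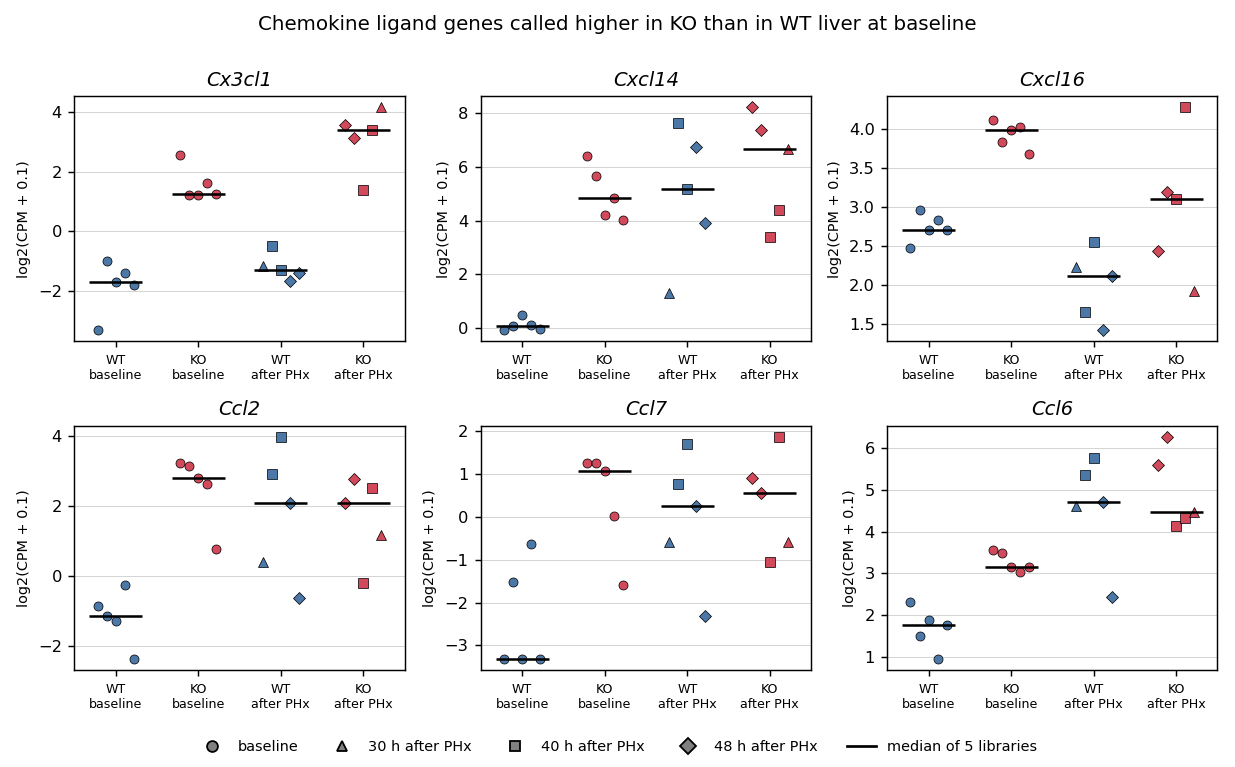
CPM of the 6 members called higher in KO than in WT at baseline, in each library on the log2(CPM + 0.1) scale, by group (blue, WT; red, KO), with marker shapes for baseline and hours after PHx and a bar at the median of 5 libraries. Cx3cl1 keeps KO above WT at both stages, whereas for Cxcl14, Ccl2, Ccl7 and Ccl6 the WT libraries after PHx reach into the range of KO.

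Ccl6 and Ccl9, mouse ligands of CCR1, lie next to each other and moved differently. Ccl6 (ENSMUSG00000018927) stood at 4.88, 2.75, 3.60, 1.83 and 3.30 CPM in WT at baseline and at 24.4, 40.5, 53.7, 26.1 and 5.36 CPM after PHx. In KO it stood at 11.7, 11.1, 8.83, 8.06 and 8.83 CPM at baseline and at 48.3, 76.7, 17.4, 19.9 and 22.1 CPM after PHx. The baseline groups did not overlap, and it rose after PHx in 4 of 4 numbered WT mice and 5 of 5 KO mice without overlap of stages. Its log2 change was 3.20 in WT (SE 0.50, edgeR adjusted p 0.000334) and 1.93 in KO (SE 0.47, edgeR adjusted p 0.0063), and no alternative run ended these calls. The genotype difference at baseline, 1.57 (SE 0.48, edgeR adjusted p 0.0297), lost its call without WT baseline replicate 2, 3, 4 or 5 or KO baseline replicate 8 (edgeR adjusted p 0.0502 to 0.0804) and in the blocked fit (1.79, limma adjusted p 0.18).

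Ccl9 (ENSMUSG00000019122) was similar in level in the baseline groups, with 79.0, 91.9, 100.9, 91.8 and 81.7 CPM in WT and 85.9, 79.9, 59.9, 84.9 and 79.9 CPM in KO. After PHx WT ranged from 13.9 to 319.6 CPM, at 49.0, 26.2, 61.9, 13.9 and 319.6, and KO stood at 16.9, 14.7, 74.0, 19.1 and 38.2 CPM. Apart from WT replicate 5, every library after PHx lay below every baseline library of WT. None of its contrasts was called. Without WT after PHx replicate 5, KO against WT after PHx was -0.19 (edgeR adjusted p 0.794), and the response in WT turned from 0.08 to -1.19 (edgeR adjusted p 0.0655). With all libraries, KO against WT after PHx (-1.53, SE 0.61, edgeR adjusted p 0.072) passed with DESeq2 (adjusted p 0.0355) and without WT after PHx replicate 2 (-1.78, edgeR adjusted p 0.0381), WT after PHx replicate 4 (-1.81, 0.0274), both (-2.14, 0.00802) or KO after PHx replicate 10 (-2.09, 0.0152). The response in KO (-1.26, edgeR adjusted p 0.116) also passed without KO after PHx replicate 10 (-1.82, edgeR adjusted p 0.0256).

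Ccl5 (ENSMUSG00000035042), made by T and NK cells among others, fell after PHx. It stood at 0.715, 0.9498, 0.0515, 0.413 and 0.321 CPM in WT at baseline and at 0.131, 0.0870, 0.190, 0.142 and 0 CPM after PHx. In KO it stood at 1.33, 0.761, 2.24, 1.54 and 0.657 CPM at baseline and at 0.330, 0.0879, 0.267, 0.222 and 0.284 CPM after PHx. The KO stages did not overlap, while WT overlapped through baseline replicate 3. On the log2 scale the change was -2.45 in KO (SE 0.62, edgeR adjusted p 0.00802) and -2.11 in WT (SE 0.68, edgeR adjusted p 0.0336). The WT call ended without WT baseline replicate 1, 2 or 4 or WT after PHx replicate 2, 4 or 5 (edgeR adjusted p 0.0515 to 0.107), without WT after PHx replicates 2 and 4 together (0.134), with library size alone (0.0528), with no filter (0.0678) and in the blocked fit (-1.89, edgeR adjusted p 0.198). KO against WT at baseline was not called (1.42, edgeR adjusted p 0.117), but was with library size alone (1.91, 0.0265) and with the 10 baseline libraries alone (1.45, 0.0465).

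Ccl3 and Ccl4, inflammatory chemokines of the same cluster, reached at most 28 counts (WT after PHx replicate 3) and 15 counts (KO baseline replicate 10) and were not tested.

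Of the eotaxins, which attract eosinophils through CCR3, Ccl24 was tested and not called in any contrast, with means from 0.895 to 1.46 CPM in the 4 groups. Ccl11 was not tested, with 0, 0, 0, 4 and 0 counts in WT at baseline, 1, 0, 2, 0 and 0 in WT after PHx, 12, 7, 1, 0 and 1 in KO at baseline and 24, 31, 4, 22 and 3 in KO after PHx. Each KO library after PHx held more counts than each WT library after PHx, 84 against 3 in all, a ratio of 22.3 (95% counting interval 7.38 to 110.5). Without the filter this was called (log2 change 4.01, edgeR adjusted p 0.0218). Ccl26 had no count.

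Ccl22 (ENSMUSG00000031779), a ligand of CCR4 made by dendritic cells and macrophages, fell after PHx in both genotypes from a low level. In WT it stood at 0, 0.650, 0.309, 0.275 and 0 CPM at baseline and at 0.0436, 0, 0, 0 and 0.0343 CPM after PHx, 25 counts against 2, a ratio of 16.4 (95% counting interval 4.10 to 143). In KO it stood at 0.863, 0.549, 0.724, 0.831 and 0.376 CPM at baseline and at 0, 0, 0.153, 0.0556 and 0.237 CPM after PHx, with no overlap. The log2 change was -3.02 in KO (SE 0.93, edgeR adjusted p 0.0212) and ended without KO after PHx replicate 7 (-2.65, 0.055) or 8 (-2.62, 0.056). In WT it was -3.65 (SE 1.17, edgeR adjusted p 0.0338) and ended without WT baseline replicate 2, 3 or 4 or WT after PHx replicate 2, 3 or 4 (edgeR adjusted p 0.0597 to 0.114), without WT after PHx replicates 2 and 4 together (0.191), with no filter (0.0597) and in the blocked fit (0.109). Ccl17, a further CCR4 ligand, reached 7 counts in KO after PHx replicate 7, and Ccl20, the CCR6 ligand, 7 counts in KO baseline replicate 7.

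Among the homeostatic ligands, Cxcl12 (ENSMUSG00000061353), made by stromal and endothelial cells and the ligand of CXCR4 and Ackr3, fell after PHx in KO. At baseline it stood at 265.9, 251.9, 257, 327 and 299.8 CPM in WT and at 215, 224, 250.8, 321 and 346 CPM in KO, which overlapped. After PHx it stood at 279, 95.2, 213, 65.2 and 247 CPM in WT and at 92.9, 70.4, 275, 117 and 100.6 CPM in KO. WT replicates 2 and 4 and all KO replicates but 10 were low. The log2 change in KO was -1.05 (SE 0.37, edgeR adjusted p 0.0374) and ended without KO baseline replicate 10, 11 or 12 or KO after PHx replicate 7, 8, 11 or 12 (edgeR adjusted p 0.0555 to 0.09999), with library size alone (0.0837), with no filter (0.0516) and with only the samples compared (0.0566). In WT it was -0.64 (SE 0.36, edgeR adjusted p 0.226), with a lower value after PHx in 4 of 4 numbered WT mice, against 4 of 5 KO mice. KO against WT after PHx (-0.46, edgeR adjusted p 0.385) passed without KO after PHx replicate 10 (-0.92, 0.0339) or without WT after PHx replicates 2 and 4 together (-0.91, 0.0498).

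Cxcl13, the B cell attractant, was not called in any contrast. Its group means were 1.05 ± 0.681 CPM in WT at baseline, 0.328 ± 0.363 in WT after PHx, 0.608 ± 0.347 in KO at baseline and 1.15 ± 1.57 in KO after PHx (SD, n = 5), the last raised by replicate 8 at 3.82 CPM. With library size alone KO against WT after PHx was called (2.45, edgeR adjusted p 0.0495), and without KO after PHx replicate 8 it was 0.57 (edgeR adjusted p 0.677) in place of 1.83 (edgeR adjusted p 0.137). Ccl19 and Ccl21a, ligands of CCR7 in lymph node stroma, reached 19 and 16 counts and were not tested. The scaffold copies of Ccl19, Ccl21 and Ccl27, and Ccl21b and Ccl27b on chromosome 4, held at most 1 count in a library. Per the design text only uniquely mapped reads were used, so counts of these near-identical genes are uncertain.

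Cx3cl1 (ENSMUSG00000031778), the membrane-bound ligand of CX3CR1 known as fractalkine, was higher in KO at both stages. At baseline it stood at 0, 0.400, 0.206, 0.275 and 0.184 CPM in WT and at 5.87, 2.24, 2.24, 2.99 and 2.30 CPM in KO. After PHx it stood at 0.349, 0.609, 0.304, 0.213 and 0.275 CPM in WT and at 11.8, 8.79, 2.52, 10.6 and 17.9 CPM in KO. Every KO library lay above every WT library at each stage. The fitted log2 change was 3.81 at baseline (SE 0.57, edgeR adjusted p 0.000131), a fold of 14.1, and 4.87 after PHx (SE 0.57, edgeR adjusted p 7.27e-06), a fold of 29.3. It rose after PHx in KO (1.72, SE 0.48, edgeR adjusted p 0.0139) in 5 of 5 mice and was not called in WT (0.66, SE 0.58, edgeR adjusted p 0.456). The difference between these responses, 1.06, was not called (SE 0.77, edgeR adjusted p 0.584). All 3 calls held under each alternative run, including the blocked fit (limma adjusted p 0.0156 at baseline and 0.000402 after PHx).

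Cxcl14 (ENSMUSG00000021508), an epithelial chemokine, had the highest log2 change of the 18 members in KO at baseline and, with all libraries, after PHx in WT. In WT at baseline it held to 0.845, 0.9498, 1.29, 0.963 and 0.872 CPM, against 85.9, 50.6, 18.5, 28.9 and 16.1 CPM in KO. After PHx it stood at 2.36, 199, 35.8, 107 and 15.01 CPM in WT and at 298.5, 165, 10.4, 20.9 and 102 CPM in KO. All libraries of the other 3 groups lay above those of WT at baseline; within the groups after PHx they spanned 2.36 to 199 CPM in WT and 10.4 to 298.5 CPM in KO. Its log2 change was 5.34 at baseline (SE 1.05, edgeR adjusted p 0.00176), with a blocked value of 5.00 (limma adjusted p 0.0655), and 6.18 for the response in WT (SE 1.09, edgeR adjusted p 0.000861). Without WT after PHx replicates 2 and 4 together the response in WT was 4.23 (edgeR adjusted p 0.00571), below the 4.54 of Cxcl2. The response in KO was 1.58 (SE 0.86, edgeR adjusted p 0.166), KO against WT after PHx was 0.73 (SE 0.84, edgeR adjusted p 0.563), and the difference between responses was -4.61 (SE 1.30, edgeR adjusted p 0.132). The value after PHx ran from 0.08 without KO replicate 7 to 1.57 without WT replicate 2, and was 2.69 and called without WT replicates 2 and 4 together. WT replicates 2 and 4 held the highest WT values after PHx, and no KO library was left out with them.

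Cxcl16 (ENSMUSG00000018920), a membrane-bound ligand of CXCR6 on T and NKT cells, was higher in KO at baseline in a narrow range. It stood at 5.46, 7.70, 6.43, 7.02 and 6.42 CPM in WT and at 17.3, 14.2, 15.8, 16.2 and 12.7 CPM in KO, with no overlap. The log2 change was 1.20 (SE 0.33, edgeR adjusted p 0.016), and each alternative run kept the call. After PHx it stood at 4.62, 3.05, 5.78, 2.59 and 4.26 CPM in WT and at 5.30, 9.05, 8.54, 19.3 and 3.69 CPM in KO, which overlapped. This difference, 1.18 (SE 0.33, edgeR adjusted p 0.013), was lost without KO after PHx replicate 11 (0.68, edgeR adjusted p 0.0642), without WT after PHx replicates 2 and 4 together (0.88, 0.082), with only the 10 libraries after PHx fitted (1.22, 0.122) and in the blocked fit (1.12, limma adjusted p 0.0528). The response in KO (-0.73, edgeR adjusted p 0.0926) was called without KO after PHx replicate 11 (-1.23, edgeR adjusted p 0.00358) and with a time term (-0.84, edgeR adjusted p 0.039). Exons of Zmynd15 overlap 552 bases of Cxcl16 on the other strand.

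Ccl27a and Ccl25 are ligands of CCR10 and CCR9 best known from skin and gut. After PHx Ccl27a fell in both genotypes and Ccl25 in WT. Ccl27a (ENSMUSG00000073888) stood at 2.60, 4.15, 3.14, 3.03 and 4.17 CPM in WT at baseline and at 1.79, 1.22, 1.90, 0.638 and 1.96 CPM after PHx, with no overlap. In KO it stood at 2.12, 3.09, 1.83, 3.32 and 2.96 CPM at baseline and at 0.989, 0.747, 2.14, 1.42 and 1.23 CPM after PHx, where replicate 10 overlapped. The fitted log2 change was -1.19 in WT (SE 0.34, edgeR adjusted p 0.0181) and -1.03 in KO (SE 0.34, edgeR adjusted p 0.0281). The WT call ended without WT after PHx replicate 4 (-0.93, edgeR adjusted p 0.0651), without replicates 2 and 4 together (-0.80, 0.180), with library size alone (0.0768), with no filter (0.0606) and in the blocked fit (0.0515). The KO call ended without KO baseline replicate 8, 11 or 12 or KO after PHx replicate 7 or 8 (edgeR adjusted p 0.0557 to 0.0789), with library size alone (0.0844), with no filter (0.062), with only the samples compared (0.0682) and in the blocked fit (0.0657).

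Ccl25 (ENSMUSG00000023235) stood at 3.97, 2.80, 4.43, 3.81 and 3.76 CPM in WT at baseline and at 2.40, 1.48, 2.89, 1.60 and 2.54 CPM after PHx. In KO it stood at 3.45, 3.85, 3.14, 3.28 and 2.72 CPM at baseline and at 2.73, 2.06, 3.28, 2.09 and 1.28 CPM after PHx. It was lower after PHx in 4 of 4 numbered WT mice (log2 change -0.78, SE 0.27, edgeR adjusted p 0.0469), and in 4 of 5 KO mice (-0.52, SE 0.27, edgeR adjusted p 0.143). The WT call ended in 14 of 18 alternatives, among them the blocked fit (0.121) and the fits without WT baseline replicate 1, 3, 4 or 5 or WT after PHx replicate 1, 2, 4 or 5 (edgeR adjusted p 0.0592 to 0.149). Exons of Elavl1 overlap 204 bases of Ccl25 on the other strand.

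Cxcl17, an epithelial chemokine, was not tested and was nearly limited to KO after PHx, with 22, 22, 2, 13 and 0 counts there, 3 in KO at baseline, 1 in WT after PHx and 0 in WT at baseline. Against WT after PHx the ratio was 47.1 (95% counting interval 8.12 to 1890). Without the filter it was called in that comparison (log2 change 4.66, edgeR adjusted p 0.0158) and for the response in KO (3.48, edgeR adjusted p 0.044). Ccl28 reached 14 counts and Ccl27b 1. Xcl1, which attracts dendritic cells with XCR1, had 10, 3, 6, 2 and 1 counts in KO at baseline and 2 in WT, a ratio of 8.45 (95% counting interval 2.08 to 74.1), and Ccl1 had no count.

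For the lists that follow, the shares of all genes called in KO against WT were 11.1% higher and 4.89% lower at baseline. After PHx they were 16% and 8.20%. For the response they were 11.4% and 8.68% in WT and 17.5% and 12.1% in KO. Of 19 genes for chemokine receptors 8 were tested. In KO at baseline 4 rose: Ccr2, the receptor of Ccl2 and Ccl7 (0.533 ± 0.286 CPM in WT, 5.30 ± 4.21 in KO, SD, n = 5), Ccr1, the receptor of Ccl6 and Ccl9 (0.0686 ± 0.0763 and 0.781 ± 0.411), Cxcr4, the receptor of Cxcl12 (0.458 ± 0.364 and 2.13 ± 1.17), and Xcr1, the receptor of Xcl1 (0.0405 ± 0.0404 and 0.890 ± 0.513). Cx3cr1, the receptor of Cx3cl1, had 0.469 ± 0.362 CPM in WT and 4.33 ± 2.40 in KO (SD, n = 5), with a log2 change of 3.21 that missed the threshold (SE 1.10, edgeR adjusted p 0.0515). After PHx no receptor differed between genotypes by the test, Ccr1 and Cxcr2 rose in WT, and Ccr7 and Xcr1 fell in KO. Cxcr3 and Cxcr6, the receptors of Cxcl9, Cxcl10 and Cxcl16, were not tested.

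The list of atypical receptors held 5 genes, all tested: Ackr1 to Ackr4, which bind chemokines without the usual G protein signal, and Ccrl2, which binds chemerin. Ackr3, which takes up Cxcl12, rose in KO at baseline (2.14, SE 0.50, edgeR adjusted p 0.0062) and after PHx (1.403, SE 0.47, edgeR adjusted p 0.0358), and after PHx in WT (1.79, SE 0.50, edgeR adjusted p 0.0161). Ackr1 and Ccrl2 were higher in KO after PHx, with log2 changes of 2.58 (SE 0.55, edgeR adjusted p 0.00195) and 2.10 (SE 0.41, edgeR adjusted p 0.000984), and Ccrl2 also rose after PHx in KO (1.398, SE 0.40, edgeR adjusted p 0.0146). Ackr2 and Ackr4 were not called.

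Among 14 genes that answer to NF-kappaB or encode inflammatory signals, 12 were tested. In KO at baseline 8 rose and none fell, beside 11.1% of all genes higher and 4.89% lower, and the median log2 change of the 12 was 1.34. Vcam1, an adhesion molecule for white blood cells, went from 6.57 ± 1.39 CPM in WT to 27.8 ± 6.92 in KO (SD, n = 5), and Icam1 from 5.97 ± 1.48 to 22.4 ± 4.29. Relb and Nfkb2, subunits of the pathway itself, and Tnfaip3, its inhibitor, were among the 8, with Csf1, Il1a and Traf1. After PHx Vcam1 alone was higher in KO by the test, Icam1 and Tnfaip3 rose after PHx in WT, and Il1b and Traf1 fell in KO. Of 16 interferon-stimulated genes, all tested, 5 rose in KO at baseline (Gbp2, Gbp3, Ifit2, Irf7 and Oas1a). After PHx 4 were higher (Gbp2, Ifit1, Ifit2 and Oas1a) and 1 lower (Iigp1) in KO, none was called in WT after PHx, and Irf7 was among those that fell in KO. Their summed level in WT went from 475 to 735 CPM at baseline to 302 to 383 CPM in 4 libraries after PHx, while replicate 4 stood apart at 1491 CPM.

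Some markers of the cells that make or follow these ligands differed between groups. Of 10 genes of recruited monocytes and macrophages 9 were tested and 7 rose in KO at baseline (Ccr2, Gpnmb, Itgax, Ly6c2, Lyz2, Spp1 and Trem2). Their summed level ran from 53.9 to 112.9 CPM in WT at baseline, 136 to 499 in KO at baseline, 43.9 to 278 in WT after PHx and 109 to 496 in KO after PHx, and S100a4 was at 0 in WT at baseline. KO baseline replicate 7, which had the highest sum of its group, was also the highest KO baseline library for 9 of the 18 members. Of 9 Kupffer cell genes 3 rose in KO at both stages (C1qa, C1qb and C1qc), with sums of 180 to 304 CPM in WT and 446.5 to 562 in KO at baseline. After PHx these sums overlapped, at 53.5 to 392 CPM in WT and 147.5 to 440.4 in KO. The rest of this list, Clec4f, Vsig4, Timd4, Cd5l, Marco and Adgre1, was not called between genotypes at either stage. Against baseline, Marco rose after PHx in both genotypes, and Adgre1 and Clec4f fell in KO. Of 10 stellate cell and fibroblast genes 7 rose in KO at baseline and 5 after PHx. Cholangiocyte genes, of which 1 of 7 tested rose in KO at baseline (Spp1, which is on the macrophage list too), summed to 34.1 to 79.1 CPM in WT at baseline and to 384, 214, 150.6, 122 and 73.9 CPM in KO at baseline, where Cxcl14 too was highest in replicates 7 and 8 and lowest in replicate 12. In WT after PHx they summed to 35.2, 97.6, 255.7, 122.5 and 48.4 CPM, and replicates 2, 3 and 4 had the highest values of Cxcl14 as well. In KO after PHx the order differed, since replicate 12 had the lowest sum and more Cxcl14 than replicates 10 and 11. The recruited monocyte and macrophage list ranked the KO baseline libraries in the same order as the cholangiocyte list, at 499, 344, 214, 196 and 136 CPM. In WT after PHx its highest sums were also in replicates 2, 3 and 4 (82.0, 278 and 110.9 CPM), so Cxcl14 went with both lists alike. The part of these cells in the levels of Ccl2, Ccl7, Ccl6, Cxcl14, Cxcl16 and Cx3cl1 was not tested.

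The neutrophil list of 9 genes, 5 of them tested, summed to 3.40, 24.1, 46.4, 28.3 and 1.92 CPM in WT after PHx, where Cxcl1 was also highest in replicates 2, 3 and 4, and to 83.6, 23.98, 6.10, 4.14 and 13.4 CPM in KO after PHx, where replicate 7 led for Cxcl1 and Cxcl2 too. In KO at baseline, replicate 7 had the highest sum and the lowest Cxcl1. At baseline the sums ran from 1.10 to 1.80 CPM in WT, with Ly6g, Mpo, Camp and Ngp at 0, and from 3.80 to 11.6 in KO, with Ly6g and Elane at 0. Of the 5 tested, 3 rose after PHx in WT (Retnlg, S100a8 and S100a9) and 1 in KO (Retnlg). WT after PHx replicate 3 was the highest of its group for 9 of the 18 members. The part of neutrophils in these values was not tested.

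The summed level of T and NK cell genes fell after PHx, as did Cxcl9 and, less firmly in WT, Ccl5. Of 11 genes 5 were tested, of which 3 fell in WT (Cd3g, Cd4 and Nkg7) and all 5 in KO. The summed level of the 11 went from 3.16 to 4.90 CPM at baseline to 0.284 to 1.00 after PHx in WT, and from 5.33 to 8.97 to 0.527 to 2.25 in KO. Of 6 B and plasma cell genes 3 of 4 tested fell in each genotype. Of 7 dendritic cell genes, all tested, 2 rose in KO at baseline and 5 fell in KO after PHx, and none was called in WT after PHx. Ccl22 was called lower after PHx in both genotypes. Cholangiocyte genes, 7 of 8 tested, were higher in KO after PHx in 5 cases, among them Epcam, Krt19, Krt7 and Sox9, and 4 of them rose after PHx in KO. Sums ran from 136 to 603 CPM there against 35.2 to 255.7 in WT after PHx. KO after PHx replicates 7 and 8 had the highest sums, 603 and 589.7 CPM, and the highest counts of Cxcl17, whereas replicate 12, with the lowest sum of 136 CPM, had no count of Cxcl17 and the highest level of Cx3cl1. Recruited monocyte and macrophage sums were also highest in replicates 7 and 8 and lowest in replicate 12 of this group. The part of these cell types in the levels of Cxcl9, Ccl5, Ccl22, Cxcl17 and Cx3cl1 was not tested. Hepatocyte genes, all 8 tested, summed to 127900 to 146800 CPM in WT at baseline, 76960 to 103100 in KO at baseline, 74830 to 121500 in WT after PHx and 39610 to 93770 in KO after PHx. The baseline groups did not overlap, and 3 of the 8 were lower in KO there (Apoa1, Cyp2e1 and Serpina1a). The part of this shift in the chemokine levels was not tested.

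**Figure D5:**
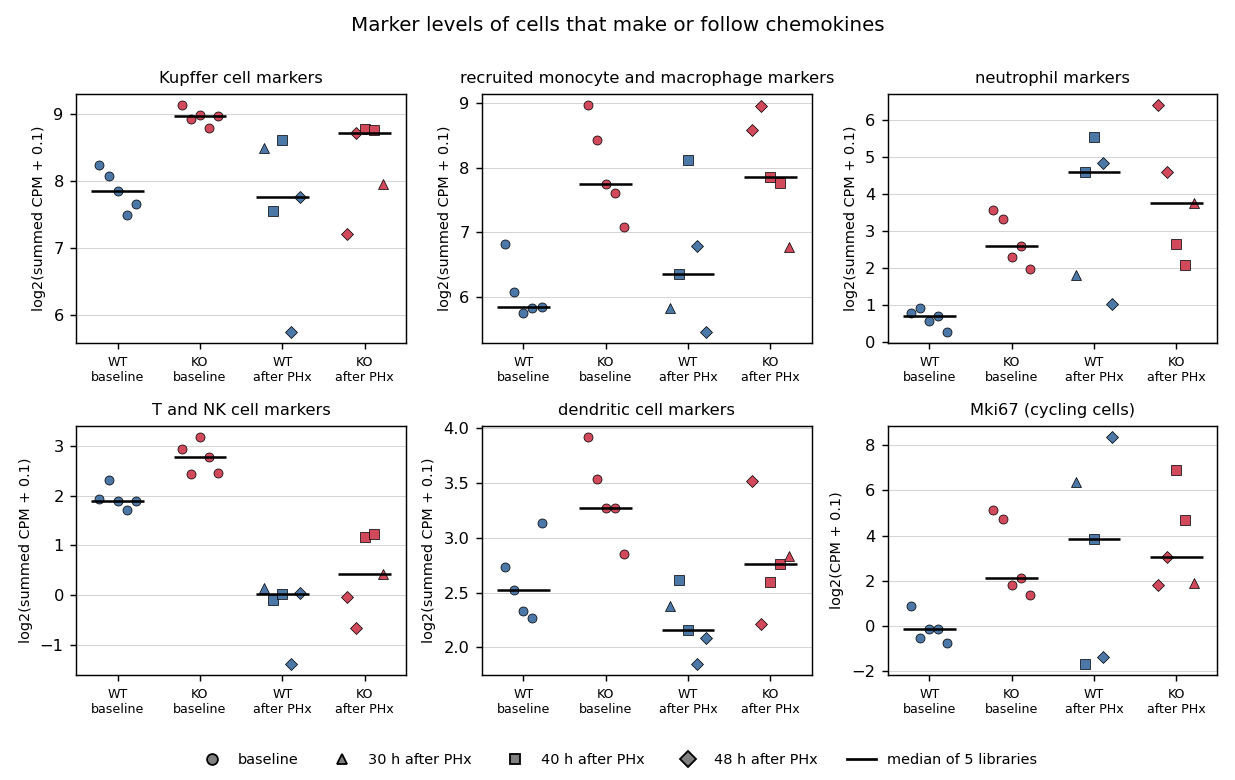
Summed CPM of 5 marker lists and CPM of Mki67 in each library on the log2(value + 0.1) scale, by group (blue, WT; red, KO), with marker shapes for baseline and hours after PHx and a bar at the median of 5 libraries. Recruited monocyte and macrophage genes separate KO from WT at baseline (136 to 499 against 53.9 to 112.9 CPM), and T and NK cell genes separate the stages within each genotype.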

How the data were processed

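The authors deposited raw counts per Ensembl gene identifier for each of the 20 samples, with no normalization, per the file headers and values. Per the labels' protocols, RNA was isolated with Trizol and columns, and poly(A) libraries were made with the TruSeq protocol. Per the design text, RNA had an RIN above 8, 1000 ng were used, and libraries were run on a NovaSeq 6000. FastQC 0.11.5 is named in both the design text and the submitters' processing notes. The design text names fastp 0.20.0 as trimmer, and the submitters' processing notes name Trimmomatic 0.36 and mm10. Per the design text, uniquely mapped reads were used. The aligner, the counting tool, its annotation and its strand setting are not given in the sources used here.

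Groups came from the genotype and collection time in the labels. Symbols and positions came from GENCODE M21, which held 46091 of the 46603 identifiers. Genes were kept with filterByExpr, scaled with TMM and fitted over all 20 samples with the 4 groups as terms by the quasi-likelihood test of edgeR 4.0.16 in R 4.3.3, with Benjamini-Hochberg adjustment over 14661 genes and a threshold of 0.05. The 5 contrasts were KO against WT at each stage, after PHx against baseline in each genotype, and the difference of these responses. DESeq2 1.42.0 and limma 3.58.1 served in alternatives, which also changed the scaling, filter, time term, samples fitted, block and libraries left out. The code was tested on simulated data. The family members and the gene lists were chosen with earlier results of these data known. Members called in any contrast, and the 3 with the highest level per kb in WT at baseline, were named with a value in every sample, and the others with ranges or counts. Some genes of the lists are counted and not reported by name here.

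Samples of the same number in the titles come from the same mouse, except that 1 WT baseline title has no number, which leaves 9 mice for the replicate block. The paired samples' residual correlation ran from -0.06 to 0.20, above 0.1 in 3 of 9 mice. The blocked KO against WT comparisons used limma with duplicateCorrelation, where the consensus correlation was 0.039. Samples of a group are separate mice per the design text, and no pair of them agreed within sampling noise.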

Additional observations from a re-analysis of the deposited data

Results flagged for a closer look

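In 8 of 72 groups of 5 libraries checked, 1 library stood apart from the other 4 by more than Dixon's 95% critical value of 0.71 for the gap over the range. Chance flags about 1 in 20 such groups. Ccl9 was at 319.6 CPM in WT after PHx replicate 5, against 13.9 to 61.9 CPM in the others, and at 59.94 CPM in KO baseline replicate 10, against 79.9 to 85.9. Cx3cl1 was at 5.87 CPM in KO baseline replicate 7, against 2.24 to 2.99. Cxcl1 reached 160.5 CPM in WT after PHx replicate 4, against 4.93 to 49.4. Cxcl10 was at 5.97 CPM in WT after PHx replicate 3, against 0.435 to 1.89. Cxcl12 held 275 CPM in KO after PHx replicate 10, against 70.4 to 117. Cxcl14 was at 1.29 CPM in WT baseline replicate 3, against 0.845 to 0.963. Cxcl2 reached 15.6 CPM in KO after PHx replicate 7, against 0.0381 to 1.01.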

How the results depend on the processing

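No alternative reversed the direction of a call. With 5 mice a group and low counts for many members, calls near the threshold moved, and the cause was not tested. In KO against WT at baseline, the members called higher were 6 (11.1% of all genes), 9 with library size alone (24%) and with only the samples compared (21.4%), 8 with DESeq2 (14.6%), and 2 with the replicate block of paired samples (6.93%). That blocked fit also used limma in place of edgeR and 18 of the 20 samples. In KO against WT after PHx the 2 called higher (16% of all genes) became 4 with no filter (10.3%), where Ccl11 and Cxcl17 are not among the 18, 1 with only the samples compared (8.12%) and 4 without WT after PHx replicates 2 and 4 together (chosen after seeing the data). The members called lower there, 0 (8.20% of all genes), became 1 with DESeq2 (10.2%) and 2 without those replicates (9.23%). For the response in WT, the 6 called higher (11.4% of all genes) became 3 without those replicates (7.15%), and the 5 called lower (8.68% of all genes) became 2 with library size alone (3.97%), 1 with no filter (3.36%), 3 with a filter on CPM (9.67%), 2 with only the samples compared (11.1%), 1 without those replicates (3.05%) and 1 with the replicate block (7.31%). For the response in KO, the 2 called higher became 4 with no filter (9.34% of all genes), with Cxcl17 and Cxcl3 not among the 18, and the 6 called lower became 3 with only the samples compared (7.54%). For the difference between responses, the 0 called lower (0.225% of all genes) became 1 with no filter (0.137%) and 2 with DESeq2 (1.21%). Leaving out 1 library at a time gave 4 to 6 members higher and 0 to 0 lower in KO against WT at baseline, 1 to 3 higher and 0 to 2 lower after PHx, 4 to 7 higher and 1 to 4 lower for the response in WT, 2 to 3 higher and 3 to 7 lower for the response in KO, and 0 to 0 higher and 0 to 1 lower for their difference. Over all genes the same fits called 8.24% to 10.1% higher and 2.07% to 4.85% lower at baseline, 13.1% to 19.9% and 5.12% to 14.4% after PHx, 8.26% to 12.4% and 5.06% to 9.09% for the response in WT, 12.1% to 22.8% and 7.43% to 17.6% in KO, and 0.0402% to 2.76% and 0.1% to 1.98% for their difference. The upper end of 3 higher in KO against WT after PHx includes Ccl11, and the 7 higher for the response in WT include Ccl3. Neither gene is among the 18. Among the 18 tested members, the replicate block changed no call beyond those given beside the results, and it was not tabulated for single genes of the other lists. Scaling by library size alone moved the median log2 change of all genes to 0.45, 0.37, 0.40 and 0.37 in the first 4 contrasts and to -0.09 in the difference, and it called 24% of all genes higher and 0.771% lower, 26.6% and 2.02%, 25.9% and 3.97%, and 27.7% and 6.55% in those 4. Ccl22 and Ccl5 had no value with the filter on CPM, and neither they (except Ccl5 in KO) nor Cxcl2 in WT had a response when only the samples compared were fitted, since they then fell under the filter.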

Other observations

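The platelet chemokines Pf4 and Ppbp, outside the symbol rule, moved in different contrasts. Pf4 rose after PHx in WT (log2 change 2.89, edgeR adjusted p 0.00693), and Ppbp fell after PHx in KO (-2.18, edgeR adjusted p 0.0438). Of 9 endothelial genes, all tested, Cdh5 was higher in KO at both stages, Kdr fell after PHx in both genotypes, and Lyve1 rose in KO. Of 6 eosinophil and mast cell genes 1 was tested and not called, and the summed level of the 6 ran from 0.688 to 2.15 CPM in WT at baseline, 0.859 to 3.54 CPM in WT after PHx, 1.66 to 3.62 CPM in KO at baseline and 1.11 to 5.73 CPM in KO after PHx, with overlap of WT and KO at both stages.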
